A study of Sus scrofa with 2 samples.

Results

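The transcripts described here are 7 genes that oocytes are known for, namely ZAR1, ZAR1L, FIGLA, NPM2 and BTG4 of the nucleus and of maternal control, and ZP2 and ZP3 of the zona pellucida coat. They were taken as all probes whose gene symbol in the platform annotation is one of these names, which gave 12 of 43794 probes and 7 of 11938 named genes. NPM2 had 5 probes, ZAR1L had 2 and the other genes had 1 each. The genes were chosen by their measured contrast between the cumulus-oocyte complexes (COC) on these same arrays, so that contrast is given as a description and no test was made of it. RNA from COC7 and COC4, single complexes of Large White gilts aspirated from slaughterhouse ovaries, was hybridized on the EMPV1 porcine embryo array in 2 colours. Array 1 carried COC7 in Cy5 and COC4 in Cy3, and array 2 carried COC7 in Cy3 and COC4 in Cy5. Both arrays hold the same 2 RNAs, so there was 1 COC on each side and the arrays were technical repeats. A complex holds an oocyte together with its somatic cumulus cells, and no treatment or stage separated the 2 complexes in the labels.

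The zona pellucida is a glycoprotein coat that the growing oocyte lays down around itself. ZP3 and ZP2 encode filament proteins of this coat, which sperm must bind and cross. FIGLA is a basic helix-loop-helix factor that in mice switches on the zona genes in oocytes. ZAR1 and its paralog ZAR1L encode zinc-finger proteins that bind stored mRNA, and in mice the loss of ZAR1 stops development soon after fertilization. NPM2 is a nucleoplasmin, a histone chaperone that in mice organizes the nuclei of the egg and the early embryo. BTG4 brings a deadenylase complex to maternal mRNA during maturation, after which that mRNA is cleared.

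All values are log2 ratios of COC7 over COC4, and a value above 0 is called the COC7 side. The deposited ratio was taken as Cy5 over Cy3, the order in which the labels give the channels and the usual one in limma. This direction is likely but is not stated in the sources used here. With the other direction COC7 and COC4 would change places in every value below. Cy3 and Cy5 would then also change places in every dye part. Array 2 had its sign reversed before averaging, which cancels a dye effect of equal size on both arrays. After ± stands how far each array lay from their average. That distance equals in size the part of the ratio that followed the dye, so it is a technical spread and not an error between complexes. Over all 43794 probes the mean had an SD of 0.19 and the dye part an SD of 0.25. The turned arrays had a Pearson's r of −0.27 across probes, which are not independent replicates. Ratios hold no level, so it was not asked whether the oocyte or cumulus markers were present, nor can more oocyte RNA per complex be told apart from fewer cumulus cells.

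ZAR1 lay on the COC7 side on both arrays. Its single probe read 0.50 on array 1, 0.90 on array 2 and 0.70 ± 0.20 (1.63-fold) on average. Of all probes on the array, 0.493% were at or above this value.

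ZAR1L also lay on the COC7 side with each of its 2 probes, which differed from each other in size. Probe 43156 had 0.73 on array 1, 0.61 on array 2 and 0.67 ± 0.061 (1.59-fold) on average. Probe 8375 had 0.55 on array 1, 0.0087 on array 2 and 0.28 ± 0.27 on average. On array 1 these probes were close to each other, and on array 2 probe 8375 was close to 0. The gene mean of ZAR1L was 0.47 ± 0.16, or 1.39-fold, and its probes differed by more (SD 0.28) than those of most genes with 2 probes (median SD 0.093, 1787 genes).

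FIGLA, the transcription factor, had the values closest to each other between the arrays when genes are compared. The probe read 0.63 on array 1, 0.49 on array 2 and 0.56 ± 0.069 (1.48-fold) on average. This mean was 8.2 times the distance between it and either array, against 3.6 times for ZAR1.

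NPM2, the histone chaperone, had all 5 probes on the COC7 side in the mean, but mostly through array 2. On array 1 they lay at −0.10, 0.20, −0.010, 0.50 and −0.087 (probes 6541, 42826, 10504, 34697 and 41193). On array 2 the same probes, in this order, lay at 1.24, 0.90, 0.98, 0.26 and 0.78. Thus 3 of the 5 probes were slightly below 0 on array 1, whereas all were above 0 on array 2. Probe 34697 went the other way from its neighbours, as it was the highest on array 1 and the lowest on array 2. The means of the 5 probes ran from 0.34 to 0.57, with a gene mean of 0.47 ± 0.37 or 1.38-fold.

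ZP2 and ZP3, the coat proteins, had small means and opposite signs on the arrays. ZP2 had −0.061 on array 1, 0.37 on array 2 and 0.15 ± 0.22 on average. ZP3 had −0.13 on array 1, 0.61 on array 2 and 0.24 ± 0.37 on average. Each mean was smaller than its distance to either array, so no side can be given for either gene.

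BTG4, the adaptor for mRNA clearance, was the only member whose mean was below 0. It had −0.56 on array 1, 0.37 on array 2 and −0.098 ± 0.47 on average. As with the zona genes, the arrays disagreed on the sign, and on array 1 BTG4 was the lowest of the 12 probes.

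**Figure D1:**
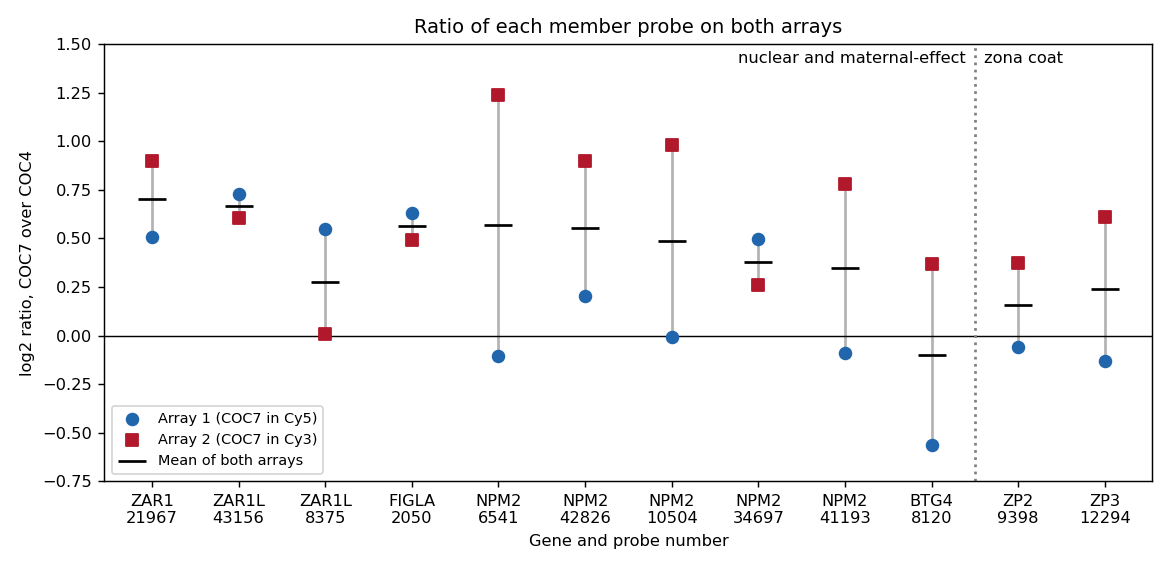
Log2 ratio of COC7 over COC4 (y axis) for each of the 12 probes (x axis), with circles for array 1, squares for array 2 and a dash for their mean. All 12 squares are above 0, from 0.0087 to 1.24, while the circles run from −0.56 to 0.73 and 6 of them are below 0. Of all probes, 50.6% were above 0 on array 1 and 49.7% on array 2, and the members were chosen on their contrast.

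Ordered by the mean, the genes ran ZAR1, FIGLA, ZAR1L, NPM2, ZP3, ZP2 and BTG4. The ranges spanned by the 2 arrays overlapped for each of the 6 pairs of neighbours in this order, while the gap itself can repeat, as both genes of a pair share each array. NPM2 was 0.23 above ZP3 on array 1 and 0.22 above it on array 2, and ZP2 was above BTG4 by 0.50 and 0.0030. The other 4 gaps changed sign between the arrays. ZAR1 was 0.14 above FIGLA in the mean, but 0.13 below it on array 1 and 0.40 above it on array 2. ZAR1L and NPM2 had nearly equal means, with a gap of 0.0073, though ZAR1L was 0.54 higher on array 1 and 0.52 lower on array 2.

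The 5 nuclear and maternal-effect genes had a median log2 ratio of 0.47, against 0.20 for the 2 zona coat genes, a gap of 0.28. This gap was seen on array 1, where the medians were 0.50 and −0.095 (gap 0.60). On array 2 they were 0.49 in both groups (gap 0.0033). Without BTG4, the lowest of the 5 in the mean, the nuclear and maternal-effect median was 0.52. Since the members were chosen on the contrast itself, the gap was not tested.

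The member probes were sorted by whether the part that followed the COC or the part that followed the dye was larger. With 2 arrays, the dye part also holds any other difference between them. The COC part exceeded the dye part for ZAR1, FIGLA, both probes of ZAR1L and probes 42826 and 34697 of NPM2, which is the same as saying that these 6 probes had 1 sign on both arrays. For the other 6 probes the dye part was larger. It was −0.67, −0.50 and −0.43 for probes 6541, 10504 and 41193 of NPM2, −0.47 for BTG4, −0.37 for ZP3 and −0.22 for ZP2. With the ratio taken as Cy5 over Cy3, these 6 probes were all brighter in Cy3 on both arrays, whichever complex carried it. Brighter in Cy5 on both were 0 member probes. Over the whole array the 2 cases were about equally common, at 31.0% and 31.9% of probes. Among the 72 other measured genes of the oocyte lists below, 29 were brighter in Cy3 on both arrays and 15 in Cy5. For all 11938 named genes these counts were 3950 and 3371. In all, 8 of the 12 member probes had a dye part below 0, against 48.8% of all probes, and probe 6541 of NPM2 lay among the lowest 0.838%. Sequence and labelling of the probes were not analysed, and the part they have in this was not tested.

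**Figure D2:**
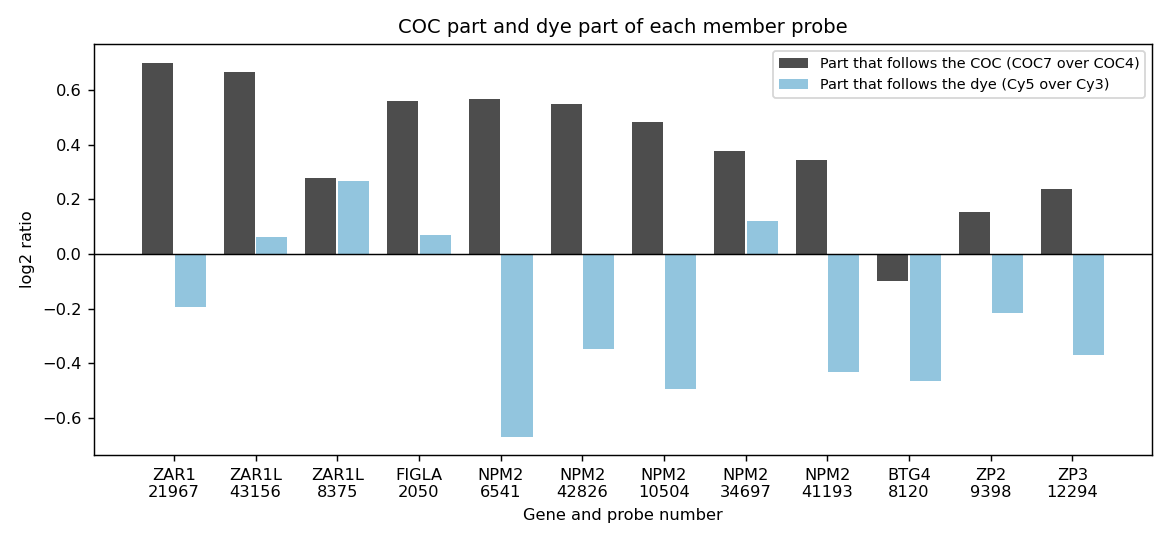
Log2 size (y axis) of the share of each ratio tied to the COC (dark bars, COC7 over COC4) and of the share tied to the dye (light bars, Cy5 over Cy3) for each member probe (x axis). The dark bar is the longer for ZAR1, FIGLA, ZAR1L and 2 probes of NPM2, and the light bar for BTG4, ZP2, ZP3 and 3 probes of NPM2, all of them negative.

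**Figure D3:**
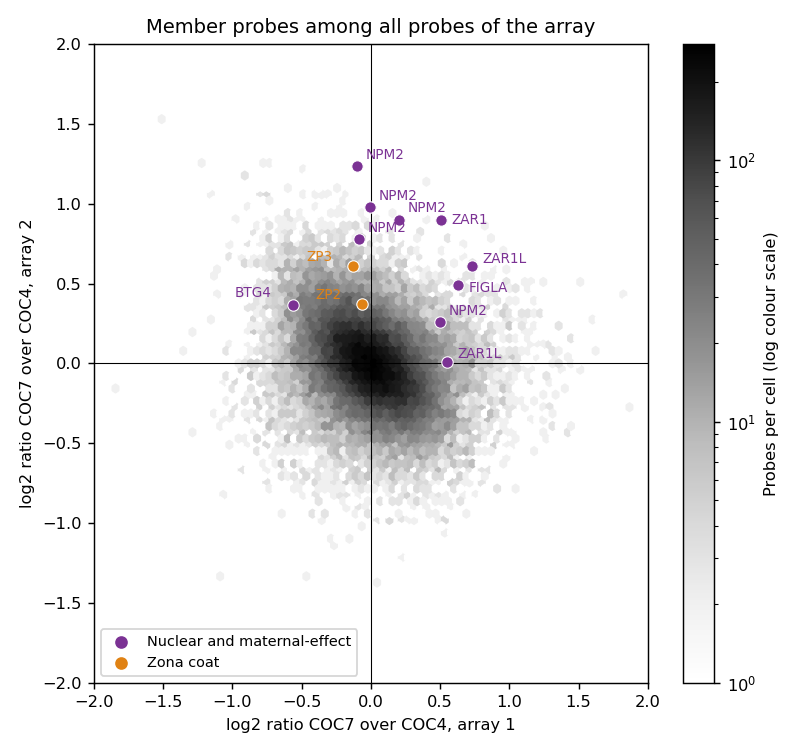
Turned log2 ratio of COC7 over COC4 on array 1 (x axis) and array 2 (y axis), with the number of probes per cell in grey on a log scale, and the members as coloured points. The cloud slopes downward (r = −0.27), ZAR1, FIGLA, ZAR1L and 2 probes of NPM2 are in the upper right and the zona genes, BTG4 and the other probes of NPM2 in the upper left, and 31 probes beyond 2 on either array lie outside the frame.

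Counted by size, the members reached modest contrasts. In the mean of both arrays, 0 of 12 member probes were 2-fold or more on the COC7 side (0.0913% of all 43794 probes) and 2 were at least 1.5-fold (0.916% of all), namely ZAR1 and probe 43156 of ZAR1L. At a log2 ratio of 0.32 or more were 8 of 12 (4.06% of all), which are these probes, FIGLA and the 5 probes of NPM2. A mean above 0 was met by 11 of 12 (50.9% of all), and a ratio above 0 on both arrays by 6 of 12 (18.7% of all). The members were chosen on this contrast, so their shares say nothing beyond the choice. At 1.5-fold on each array separately, 1 member probe remained, probe 43156 of ZAR1L.

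The probes of NPM2 allow the COC part to be compared within a gene. Their means had an SD of 0.10, close to the median of 0.11 over the 185 genes with 5 probes, whereas their dye parts had an SD of 0.30, against a median of 0.17. Of those 185 genes, 90.8% had a spread of the dye part no larger than that of NPM2. All 5 means of NPM2 were above 0, as for 23 of the 185 genes (12.4%). NPM2 was chosen on this contrast, so the side of its means says nothing beyond the choice. The 2 probes annotated to the RefSeq transcript of NPM2 (34697 and 41193) had means of 0.38 and 0.34 but dye parts of 0.12 and −0.43. Probes of 1 gene share their transcripts and their RNA, so they are not replicates of the complexes.

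Other genes of the same processes were looked at as lists, each with the values of its genes farthest from 0. Besides the members, 72 genes of these lists were measured, of which 41 lay above 0 and 31 below. Many of the 72 are also or mainly expressed outside the oocyte, so they are not a set of oocyte markers. Their median was 0.015, against 0.0062 and 52.0% above 0 over all 11938 named genes. It was 0.0019 on array 1 and 0.13 on array 2. Above 0 on both arrays were 21 of the 72, against 20.3% of all named genes.

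The third coat gene measured, ZP4, had −0.44 on array 1, 0.38 on array 2 and −0.030 ± 0.41 on average, with the signs that ZP2 and ZP3 had on each array. ASTL, the protease that cleaves ZP2 after fertilization, had −0.47 and 0.53. OVGP1, the oviduct glycoprotein that coats the zona, had −1.04 and 0.66, a mean of −0.19 ± 0.85. FETUB, an inhibitor of that protease in mice, had −0.095 and 0.13. Thus these 4 genes were below 0 on array 1 and above 0 on array 2, as ZP2 and ZP3 were. So were 29 of the 72 genes of all the oocyte lists and 3950 of all 11938 named genes. These signs were therefore not particular to genes of the zona.

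Among 8 other oocyte transcription factors measured, 4 were above 0 and 4 below (median −0.0073). LHX8, a homeobox factor of early oocytes, was the highest at 0.38 ± 0.26 (0.12 on array 1 and 0.64 on array 2), next to POU5F1, the pluripotency factor, at 0.38 ± 0.44. OTX2, a homeobox factor, was the lowest at −0.16 ± 0.61. TCF3, which pairs with FIGLA on DNA and was named here after its value was seen, had −0.13 ± 0.064.

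The nucleoplasmins and histone chaperones other than NPM2 numbered 10 measured genes, with 6 above 0, 4 below and a median of 0.045. H1FOO, the linker histone of oocytes, had 0.42 ± 0.24 or 1.34-fold (0.18 on array 1 and 0.66 on array 2). CHAF1B and CHAF1A, subunits of chromatin assembly factor 1, had 0.21 ± 0.20 and 0.20 ± 0.032. Each of these 3 genes, named because they lay farthest from 0, was above 0 on both arrays. In all, 4 of the 10 genes were, against 20.3% of all named genes. The maternal-effect list, 11 measured genes with 7 above 0, had a median of 0.070, at −0.11 on array 1 and 0.17 on array 2. UHRF1, which maintains DNA methylation, had 0.29 ± 0.073 and NLRP2, a maternal-effect gene of the NLR family, 0.23 ± 0.17, while UCHL1, a deubiquitinase abundant in oocytes, had −0.23 ± 0.44.

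Factors that store or clear maternal mRNA, 22 measured genes besides ZAR1, ZAR1L and BTG4, ran both ways, with 12 above 0, 10 below and a median of 0.0082. EIF4E1B, the oocyte form of a cap-binding protein, had 0.51 on array 1, 0.41 on array 2 and 0.46 ± 0.048 (1.38-fold) on average. PABPC1L, a poly(A)-binding protein of oocytes and embryos, had 0.67 and 0.24, a mean of 0.45 ± 0.21. These genes were on the COC7 side on both arrays, as ZAR1 and ZAR1L were, but they were named because they lay farthest from 0. Of the 22 genes, 8 were above 0 on both arrays, against 20.3% of all named genes. BTG1, a paralog of BTG4 that somatic cells express widely, was farthest from 0 in the list, at −0.37 on array 1, −0.98 on array 2 and −0.67 ± 0.31 (1.59-fold on the COC4 side) on average. CNOT7 and CNOT8, the deadenylases that BTG proteins bind, had 0.0068 ± 0.11 and 0.032 ± 0.28, and were named here after their values were seen. The 9 measured genes of oocyte growth factors and signals had a median of 0.0011, with MOS, a kinase of meiotic arrest, at 0.34 ± 0.27, BMP6, a growth factor, at 0.14 ± 0.11 and BNC1, a zinc-finger factor, at −0.23 ± 0.0056. The 8 measured germ-line genes had a median of 0.091, with SYCP3 of the synaptonemal complex at 0.23 ± 0.22, NANOS1, an RNA-binding protein, at 0.14 ± 0.14 and PIWIL1, a piRNA-binding protein, at 0.12 ± 0.15.

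Markers of the other cells of the complex, those of cumulus and granulosa cells, mostly lay the other way from ZAR1 and FIGLA. This list was chosen with earlier results of these data known. Its counts are therefore a description, and no test was made of them. The list held 29 measured genes, with 22 below 0 and 7 above (median −0.15, range −1.28 to 0.32), where 48.0% of all named genes were below 0. The median was −0.29 on array 1 and −0.078 on array 2. Below 0 on both arrays were 15 of the 29 (18.4% of all named genes), and above 0 on both was 1. At 1.5-fold or more were 6 genes on the COC4 side (0.963% of all named genes) and 0 on the COC7 side, led by TNFAIP6 and VCAN of the cumulus matrix at −1.28 ± 0.60 and −1.10 ± 0.29 and the nuclear receptor NR5A2 at −1.12 ± 0.37. Of these 6, INHA, the inhibin alpha subunit, had −2.70 on array 1 and 0.97 on array 2, so no side can be given for it. The other 5 were below 0 on both arrays. The highest gene of the list, PTX3, had 0.78 on array 1, −0.13 on array 2 and 0.32 ± 0.46 on average. It was named here after its value was seen. Of 14 measured oocyte markers, 9 were above 0, with a median of 0.063, at −0.095 on array 1 and 0.37 on array 2. Some of these markers are members, which were chosen on this contrast. Without the members, 5 of 9 were above 0, with a median of 0.010, at −0.37 on array 1 and 0.071 on array 2. Over all named genes 52.0% were above 0, with a median of 0.0062. Among the 9 markers that are not members, the farthest from 0 after MOS were OOEP, of the subcortical maternal complex, at −0.18 ± 0.25 and NOBOX, a homeobox factor, at 0.13 ± 0.13. The part that a different ratio of cumulus to oocyte RNA had in the values of the members was not tested.

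**Figure D4:**
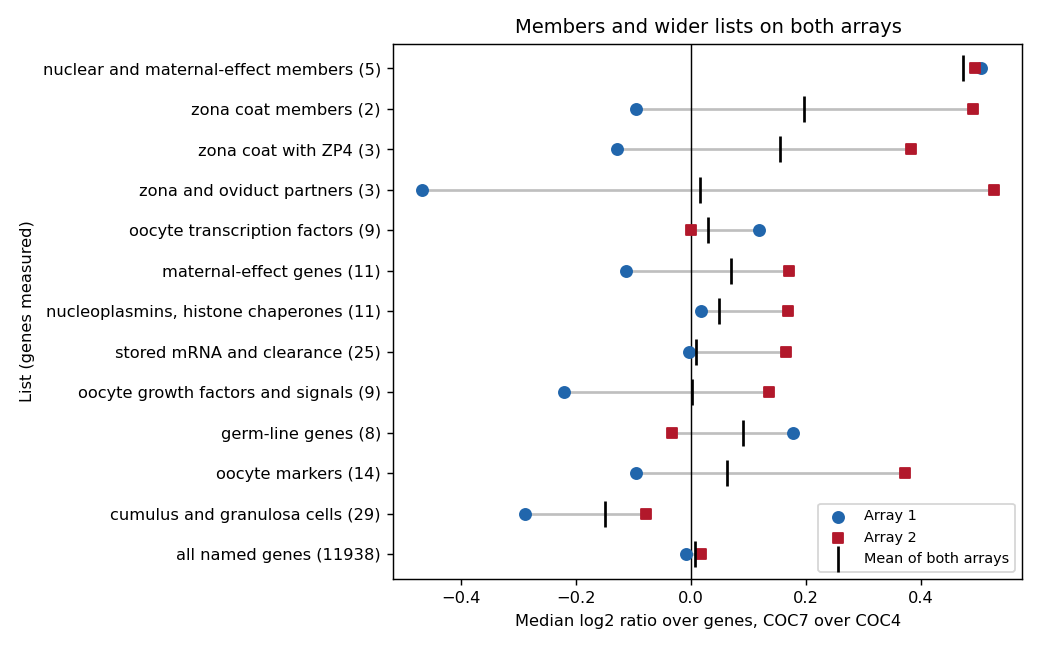
Median log2 ratio of COC7 over COC4 over the genes of each list (x axis), on array 1 (circles), array 2 (squares) and in the mean of both (bars), with the number of genes measured beside each list (y axis). The nuclear and maternal-effect members are at 0.50 and 0.49 on the arrays, the zona coat members at −0.095 and 0.49, and the cumulus and granulosa list is below 0 on each array. Medians are taken over genes for each column on its own, so the bar need not lie between the points.

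The named genes closest to each member on both arrays were found by the Euclidean distance between their pairs of values, over 2 arrays only. Symbols that begin with LOC were left out of this search and of its counts. For ZAR1 these were ALKBH2 and EPB41L4B, at distances of 0.038 and 0.041, and 3 named genes lay within 0.1 of it. For ZAR1L they were RNF115 and MRPL20 and for FIGLA SLC1A5 and TESC, with 29 and 17 genes within 0.1. For NPM2 they were ZFYVE1 and CRNKL1, the only 2 within 0.1. BTG4, with MTSS1L and ATXN1L nearest, ZP2, with ACTL7A and CASC1, and ZP3, with CLEC4G and LRRK1, lay in denser parts of the plot, with 71, 204 and 46 genes within 0.1.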

How the data were processed

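The deposited values are log2 ratios of the dyes on each array. The authors amplified and labelled the RNA, read the images in GenePix Pro with background subtraction, normalized the ratios and fitted them with limma in FlexArray. They normalized within and between arrays by a procedure picked from the spike-in controls. The sources used here give neither its name nor the centring nor the dye in the numerator, and the log base was read from fold lines in a plot of the study. A further deposited table was not used here, since its 2 columns of values match no sample by name. The number of arrays limits the precision.

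Array 2 was turned in sign, both arrays were averaged per probe, and probes were averaged per gene. With 1 COC on each side no test was made. All 12 probes entered, with no filter on low values. The 7 symbols are all in the RefSeq table used here, and the accessions of 2 of 2 probes that carry one matched their gene. Members, lists and folds were chosen with earlier results of these data known. The text names all members, the 2 genes nearest to each, and up to 3 genes per list farthest from 0. Alternatives were each array alone, median centring, equal scale, the medians of 140 blocks of consecutive probes removed, other folds and other units. The arithmetic was tested on simulated data. Probe, promoter and protein sequences were not analysed here. Python 3.11.15, numpy 2.4.6, pandas 2.3.3 and matplotlib 3.10.9 were used.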

Additional observations from a re-analysis of the deposited data

How the results depend on the processing

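With each array centred on its median, scaled to a common SD or freed of block medians, the mean and the dye part of all 7 members kept their sign. List medians, run with the centring and the block medians but not the scaling, kept theirs except for the zona and oviduct partners, at −0.0061 with block medians removed. Single arrays changed more. On array 1 alone ZP2 was −0.061 and ZP3 −0.13, and the medians of whole lists, members included, were −0.13 for the zona coat with ZP4, −0.47 for the zona and oviduct partners, −0.11 for maternal-effect genes, −0.0031 for stored mRNA and its clearance, −0.22 for oocyte growth factors and signals and −0.095 for oocyte markers. On array 2 alone BTG4 was 0.37, and the medians were −0.00026 for oocyte transcription factors and −0.033 for germ-line genes. The gap between nuclear and zona genes ran from 0.0033 to 0.60 on single arrays. Member probes at least 1.5-fold on the COC7 side numbered 2 (401 of all), against 0 (40) at 2-fold, 8 (1780) at a log2 ratio of 0.32, 1 (73) at 1.5-fold on each array and 1 (115) as genes. The table with unmatched columns was not run as an alternative, and no probe carries the name ZP1. With 1 COC a side, variation among complexes was not measured, and a dye effect of unequal size on the arrays does not cancel. No paired analysis was possible because there was 1 COC on each side, and the 2 arrays were combined only as technical repeats.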
